A study of Mus musculus with 4 samples.

Results

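Major histocompatibility complex (MHC) class II genes and their transactivator Ciita were examined for open chromatin in mouse intestinal stem cells. The 7 genes were H2-Aa, H2-Ab1 and H2-Eb1, which encode chains of the classical class II molecules, H2-DMa and H2-DMb1, which encode the peptide-editing DM molecule, Cd74, which encodes the invariant chain, and Ciita. Peaks of 4 libraries that shared at least 1 base were merged into 119965 regions, and every region inside a member gene or within 50 kb of it was taken, on the mm10 build. This gave 101 regions near 7 of 21887 protein-coding genes. The regions were taken by position alone, for genes named with earlier results of these data known. Of the regions, 36 lay in the windows of more than 1 member, because 5 of the 7 genes sit side by side on chromosome 17, so the members are not independent of each other.

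The data were ATAC-seq libraries, in which a transposase places sequencing adapters into accessible DNA, and the values are the authors' peak calls for each library. All mice carried the Lgr5-EGFP-IRES-creERT2 allele, received no treatment and were 6 to 12 weeks old. The small-intestinal group (SISC, 2 libraries) held Lgr5-EGFP+ CD24- cells sorted from crypts of the upper and lower small intestine, and the large-intestinal group (LISC, 2 libraries) held Lgr5-EGFP+ cells from the cecum to the rectum, with no CD24 gate given. Each library started from 50000 cells and 10 PCR cycles. EGFP in this allele is driven by the Lgr5 locus and is known to be expressed in a mosaic of crypts, so the sort samples the labelled crypts. The CD24 gate was given for one group only, so a difference between gut segments and a difference between gates cannot be told apart. Separate animals for the 2 libraries of each group are not stated, so the spread within a group may be technical.

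The lists held 83443 and 93220 peaks in the SISC libraries and 91313 and 88739 in the LISC libraries. Read depth is unknown, since a peak list holds no read total. The median −log10 q of a peak was 36.1 and 32.8 in SISC and 35.6 and 26.2 in LISC, lowest in LISC replicate 2. This value measures the significance of a peak over local background, and the fold enrichment measures its height over it. Y-chromosome regions were called in replicate 1 of each group (6 in SISC, 8 in LISC) and in neither replicate 2. At the markers, all 9 epithelial genes (Epcam, Cdh1, Krt8, Krt18, Krt19, Cldn7, Vil1, Cdx1, Cdx2) had a region within 1 kb of an annotated end in all 4 libraries, as did 62.1% of protein-coding genes. Of 6 crypt stem cell genes, Lgr5, Ascl2, Smoc2 and Rnf43 did so too, while Olfm4 was called in SISC only. Axin2 was called at an annotated end in 1 library of each group, and its RefSeq promoter was called in all 4. With 2 libraries against 2, an exact permutation test cannot give a two-sided p below 0.333, so no test was run and results are counts set beside the same count over all regions or genes.

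MHC class II molecules carry peptides from endosomes to the cell surface, where CD4+ T cells read them. The invariant chain blocks the groove of a new class II molecule and directs it to endosomes, and DM then exchanges the invariant chain remnant for peptide. CIITA binds no DNA itself: it docks on an enhanceosome of RFX, CREB and NF-Y proteins assembled on the X and Y boxes of class II promoters, and interferon gamma raises transcription of Ciita. Professional antigen-presenting cells express these genes constantly, and intestinal epithelial cells, Lgr5+ stem cells among them, are known to express class II.

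The promoters are shown first because 3 of them hold a motif pair near which the peak summits fell. Promoter sequences from RefSeq (GRCm38.p6) were matched for 4 of the 7 members: H2-Aa, H2-Eb1, H2-DMb1 and H2-DMa. The last 150 bases before the transcription start are printed for the 3 of these that hold an X1 core, bound by RFX, 20 to 50 bases before a Y box core, bound by NF-Y, and capitals mark both. The Y box core was searched as ATTGG. The X1 core was searched as AGCAAC, as GGCAAC with G in the first place, as AGTAAC with T in the third place and as GGTAAC with both. The H2-Aa stretch is chr17:34287824-34287973, minus strand. The H2-Eb1 stretch is chr17:34305717-34305866, plus strand. The H2-DMb1 stretch is chr17:34153041-34153190, plus strand.
H2-Aa: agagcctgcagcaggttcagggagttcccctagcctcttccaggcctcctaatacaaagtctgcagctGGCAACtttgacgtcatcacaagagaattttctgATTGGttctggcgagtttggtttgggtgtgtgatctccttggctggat
H2-Eb1: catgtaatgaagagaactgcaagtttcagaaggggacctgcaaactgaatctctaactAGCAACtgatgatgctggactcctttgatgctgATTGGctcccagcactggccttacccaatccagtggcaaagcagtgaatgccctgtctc
H2-DMb1: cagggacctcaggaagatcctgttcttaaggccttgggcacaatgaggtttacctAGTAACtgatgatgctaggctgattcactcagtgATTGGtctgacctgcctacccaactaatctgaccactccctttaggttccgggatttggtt

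The first base of the X1 core stood 82 bases before the start in H2-Aa, 92 in H2-Eb1 and 95 in H2-DMb1, and the Y box core 34, 33 and 34 bases after that first base. Both motifs were searched on both strands of 32851 RefSeq promoters of the same length (250 bases before to 50 after the start): 35.8% held an X1 core, 37.4% an ATTGG, and 1.29% the spaced pair on the same strand. On the gene's own strand the pair was in 0.588%. Among the other class II genes, H2-Oa, H2-Ob and H2-Eb2 held the pair, out of 4 with a promoter sequence. Of the genes in the other lists described here with a promoter sequence, Cd68 held it, on the opposite strand. A match is a description of letters and not of binding.

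The summits at these 3 promoters were placed against the motifs. The H2-Aa summit was 64, 61, 61 and 64 bases before the start in SISC replicates 1 and 2 and LISC replicates 1 and 2, between the X1 core and the Y box core. The H2-Eb1 summit was 96 bases before the start in all 4 libraries, 4 bases ahead of the X1 core. The H2-DMb1 summit was 57, 58, 57 and 59 bases before the start, at the Y box core. The 4 summits of a region thus spanned 3, 0 and 2 bases. Among all 57829 regions called in all 4 libraries, 8.23% had summits within 3 bases of each other and the median span was 44 bases. Near the 7 genes it was 11 of 57 regions (19.3%), with a median of 26 bases. The limit of 3 bases equals the widest of the 3 promoter spans, so these promoters meet it by construction and are among the 11. The regions compared were not matched for peak strength or position. The lower-end regions of H2-Ab1 and Cd74 had summits that spanned 60 and 77 bases. Of the 423 promoters that hold the pair, 197 were called in all 4 libraries (46.6%), against 45.4% of all promoters.

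**Figure D1:**
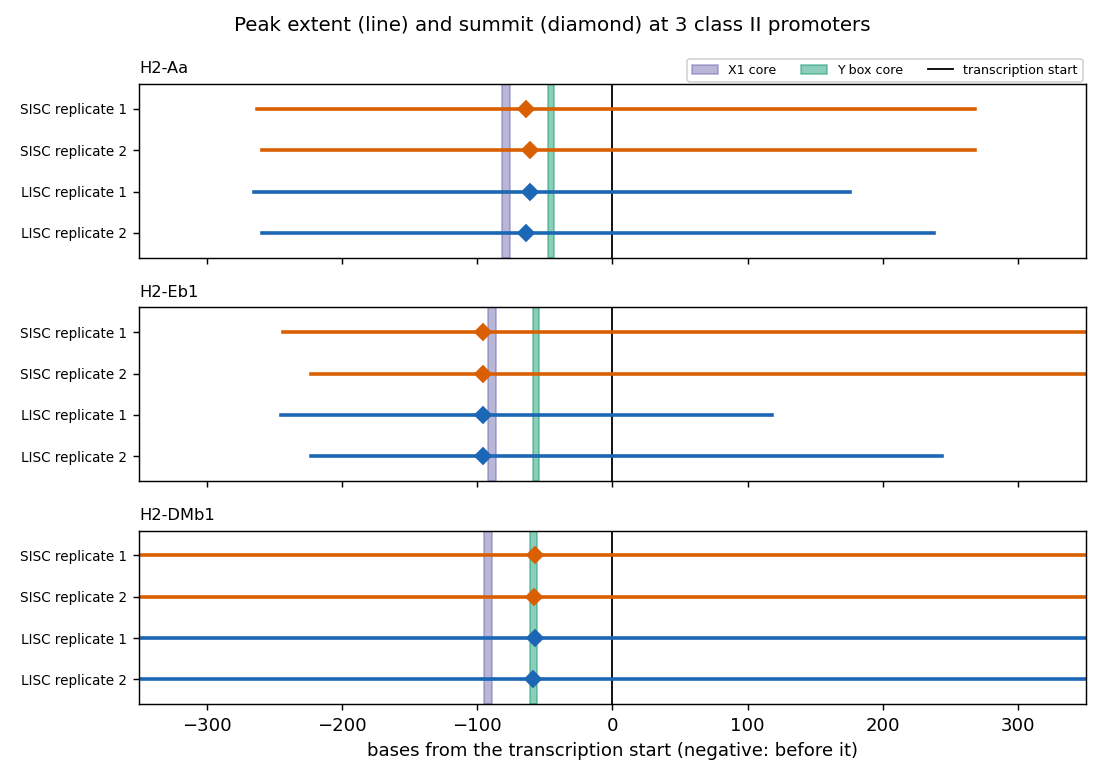
Each row is 1 library, with SISC in orange and LISC in blue. The horizontal line is the extent of the authors' peak and the diamond its summit, on an axis of bases from the transcription start, and bars mark the X1 core and the Y box core. H2-DMb1 peaks run past both edges of the plot and the SISC peaks of H2-Eb1 past the right edge. The summits span 3 bases at H2-Aa, 0 at H2-Eb1 and 2 at H2-DMb1.

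Near the 7 genes, regions shared by all libraries were the commonest kind and regions called only in the small intestine outnumbered those called only in the large intestine. Of the 101 regions, 57 (56.4%) were called in all 4 libraries, against 48.2% of all regions. SISC-only regions, with a call in each SISC library and none in LISC, were 11 (10.9%), against 7.96% of all regions. LISC-only regions, defined the same way, were 2 (1.98%), against 10.2% of all regions. A further 18 were called in a single SISC library, 5 in a single LISC library and 8 in 2 or 3 libraries of both groups. Regions around other listed genes also leaned to SISC. Around the epithelial genes 8.54% were SISC-only and 4.52% LISC-only, and around genes of antigen processing for class II 11.5% and 5.21%. Around stromal, endothelial and glial genes both shares were 8.47%. A lean to SISC is therefore not particular to the 7 genes. The number of regions called near the genes was 79 and 88 in SISC and 69 and 64 in LISC, so the groups did not overlap. Over all regions the groups did overlap, at 78033 and 91060 in SISC and 86171 and 85723 in LISC. The SISC-only count moved between 12 and 23 when 1 library was left out, largest without SISC replicate 1, and the LISC-only count between 2 and 7, largest without LISC replicate 2. In bulk libraries, fewer cells with an open site and a weaker opening in each cell cannot be told apart, and a missing call does not show a closed site.

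Gene by gene, every member had at least 1 SISC-only region within 50 kb, against 46.5% of protein-coding genes. H2-Eb1 and Cd74 had a LISC-only region each, while 43.1% of protein-coding genes had at least 1. Ciita had 4 SISC-only regions, a number that 3.66% of genes reach. Cd74 had 3, reached by 8.85%, and H2-DMa and H2-Eb1 had 2 each, reached by 20.8%. H2-Aa, H2-Ab1 and H2-DMb1 had 1 each. The order of the genes depended on the settings: with the strongest 41721 peaks of each list H2-Eb1 had 5, H2-Aa and H2-Ab1 had 4 each, Ciita had 2 and Cd74 had 0. Ciita had 7 SISC-only regions without SISC replicate 1, and 6 without SISC replicate 2 or without LISC replicate 1. Cd74 had 6 without SISC replicate 1 and 6 without SISC replicate 2. Without SISC replicate 1, H2-DMa had 5, H2-Eb1 4, H2-Aa and H2-DMb1 3 each and H2-Ab1 2, and without each of the other libraries these 5 genes had 1 to 3. The members had 18 to 25 regions each, where the median gene had 11.

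**Figure D2:**
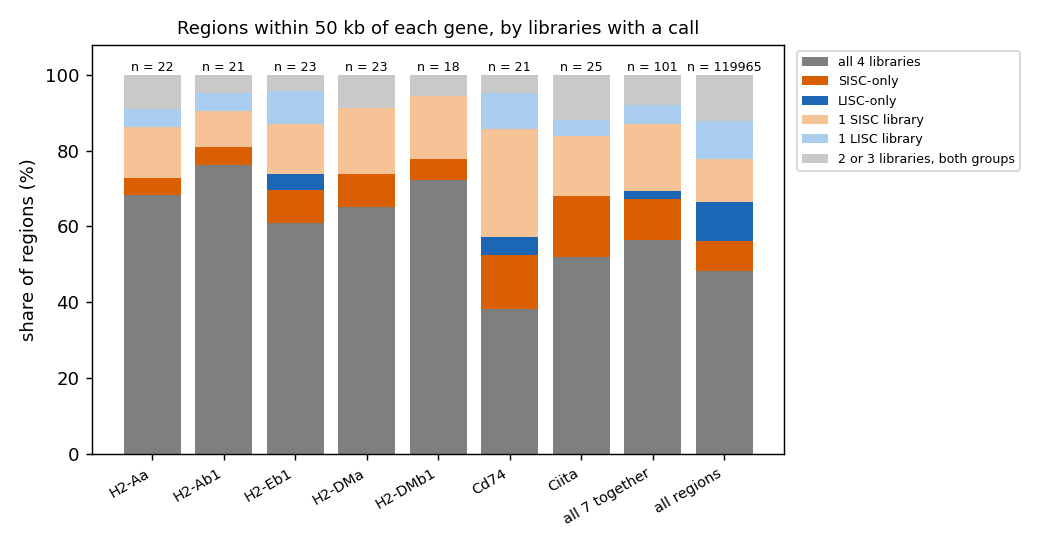
Stacked bars give the share of regions (%) within 50 kb of each gene by the libraries that called them, with the number of regions above each bar. SISC-only regions (dark orange) are 10.9% of the 101 regions near the 7 genes and 7.96% of all regions, and LISC-only regions (dark blue) are 1.98% and 10.2%. Chromosome 17 genes share regions.

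Of the 7 genes, 6 had a region within 1 kb of an annotated end in all 4 libraries, against 62.1% of protein-coding genes, and Ciita had none in any library. The gene table used here holds no strand or exons, so regions are placed by the lower or upper end of a gene and as inside or outside it. For H2-Aa, H2-Eb1 and H2-DMb1 the RefSeq transcription start lies at the upper, the lower and the lower end. Levels at these regions are given as −log10 q in the order SISC replicate 1, SISC replicate 2, LISC replicate 1, LISC replicate 2, and they depend on each library's own depth.

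The α chain gene H2-Aa (chr17:34282744-34287823) pairs with the β chain of H2-Ab1 to form the I-A molecule. Its region chr17:34287555-34288088 covers the transcription start and had −log10 q values of 306, 260, 195 and 95.1, with fold enrichments over local background of 13.4, 10.6, 14.8 and 8.83. Both SISC values of −log10 q were above both LISC values, while the fold enrichments overlapped. This was the strongest region in the windows of H2-Aa, H2-Ab1 and H2-Eb1 by its mean rank in the 4 lists. Inside the gene, 1.58 kb from that end, a second shared region (chr17:34285872-34286244) had values of 76.6, 63.0, 34.9 and 26.5. The lower end had no region within 1 kb, the nearest being a SISC replicate 1 call 1.41 kb away with a −log10 q of 7.46.

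H2-Ab1 (chr17:34263227-34269418), the I-A β chain gene, had a shared region over its lower end (chr17:34263010-34263530) with −log10 q values of 148, 145, 101 and 56.6 and fold enrichments of 6.71, 5.91, 6.01 and 4.89. A second shared region inside the gene, 0.777 kb from that end, had values of 66.3, 62.4, 33.5 and 28.1. SISC was above LISC by −log10 q in both. The upper end carried a single weak call in LISC replicate 1, with a −log10 q of 6.13. The SISC-only region of this gene, chr17:34257646-34258176, lies 5.05 kb outside the lower end and had values of 32.0 and 37.4 in the SISC libraries. It also falls within 50 kb of H2-Aa and H2-Eb1, and for H2-Aa it is the only SISC-only region.

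H2-Eb1 (chr17:34305867-34316674) encodes the β chain of the I-E molecule. Its start lies in a shared region (chr17:34305622-34306670) with −log10 q values of 142, 115, 96.6 and 60.5 and fold enrichments of 5.56, 4.81, 5.27 and 4.80. A separate region 0.66 kb ahead of the start (chr17:34304790-34305207) showed a wider gap between the groups, with −log10 q of 86.8 and 72.5 in SISC and 26.0 and 16.5 in LISC. Its fold enrichments did not overlap either, at 4.37 and 3.89 against 2.95 and 2.79. Between H2-Eb1 and the neighbouring Btnl2, the SISC-only region chr17:34347590-34347894 had values of 21.8 and 27.1, and the LISC-only region chr17:34340416-34340844, inside H2-Eb2, had values of 7.79 and 12.6.

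The genes of the peptide editor DM differed from each other. H2-DMb1 (chr17:34153191-34160229) had a shared region over its start (chr17:34152555-34153743) with −log10 q values of 245, 226, 160 and 62.8 and fold enrichments of 17, 12.9, 15.9 and 8.5. SISC was above LISC by −log10 q and the fold enrichments overlapped. Its only SISC-only region, chr17:34164550-34164869, lay 4.32 kb beyond its upper end and was weak, at 6.81 and 7.57.

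H2-DMa (chr17:34119693-34139101) is annotated over a span that runs across Brd2, a chromatin reader gene, and its lower-end region (chr17:34119037-34120067) also lies inside Brd2, so the call cannot be assigned to one of them. There the −log10 q values were 291 and 210 in SISC and 335 and 176 in LISC, which overlap. Its upper-end region (chr17:34139189-34140048) had values of 117, 88.1, 67.6 and 45.3, with SISC above LISC. The strongest region of both DM genes' windows, chr17:34135232-34135993, lay 3.11 kb inside the upper end of H2-DMa and had values of 560, 404, 592 and 290, which are percentiles of 98.7, 98.6, 99.0 and 98.5 in the 4 lists. Both RefSeq starts of H2-DMa lie inside its annotated span. The promoter window of one overlaps the shared region chr17:34120870-34122913, at 164, 87.9, 187 and 72.9, which also covers an end of Brd2. The other was called in no library, and neither holds the motif pair. The second SISC-only region of this gene, chr17:34099704-34100441, lies 4.47 kb from H2-Oa and had values of 10.4 and 24.6.

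**Figure D3:**
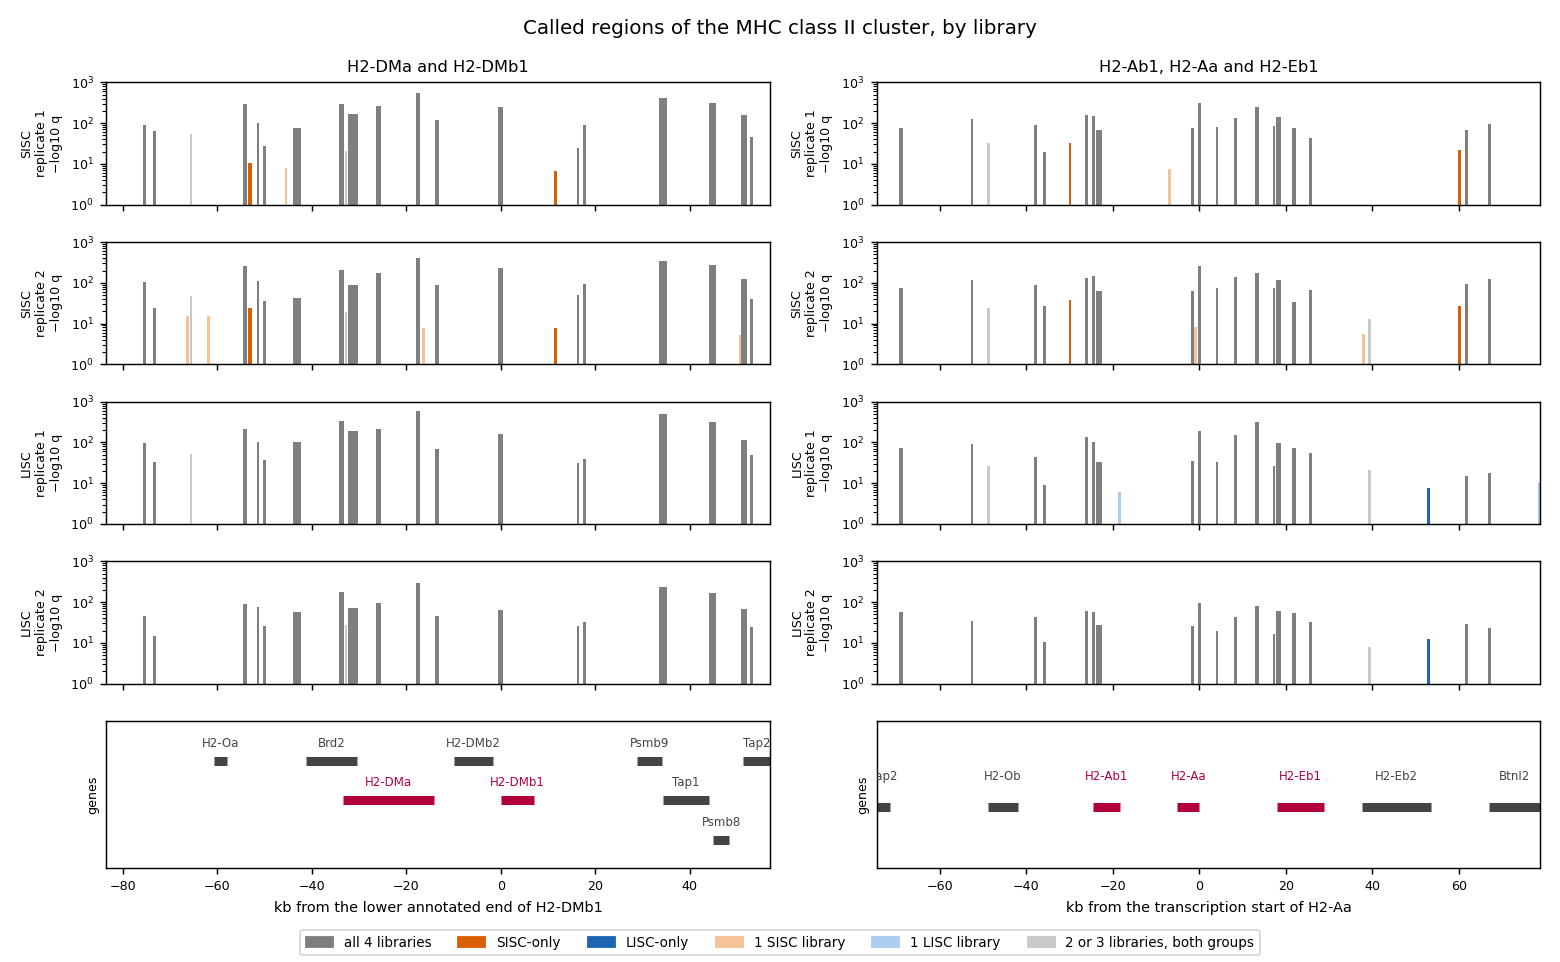
Bars are the regions called in each library across the class II genes of chromosome 17, drawn at their width or a minimum visible width, with the authors' −log10 q on a log axis and distance in kb on the horizontal axis. Grey bars, called in all 4 libraries, are 36 of the 55 regions. The 4 SISC-only regions (orange) and the 1 LISC-only region (blue) all lie outside the 5 member genes (red).

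Cd74 (chr18:60803849-60812652), on another chromosome, had a shared region over its lower end (chr18:60803207-60804127) with −log10 q values of 283, 216, 163 and 47.2 and fold enrichments of 7.61, 7.05, 9.09 and 4.91. SISC was above LISC by −log10 q, LISC replicate 2 was the lowest, and the fold enrichments overlapped. Just inside the gene, 0.695 kb from that end, the region chr18:60804544-60805160 was SISC-only, at 19.6 and 33.6, and 1.6 kb inside a shared region had values of 112, 93.5, 83.0 and 72.6. The other SISC-only regions lay on either side of Rps14, a ribosomal protein gene. The region chr18:60769631-60770228, at 47.7 and 37.9, was 4.37 kb from Rps14 on the side away from Cd74. The region chr18:60787898-60788827, at 16.8 and 16.7, lay between Rps14 and Cd74. The LISC-only region chr18:60843914-60844502, at 10.9 and 21.0, was inside the neighbouring Tcof1, whose far end held the strongest region of the window (527, 424, 449 and 224). Of the 21 regions around Cd74, 8 were shared (38.1%), a lower share than the 65.5% of the class II cluster or the 52.0% around Ciita.

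Ciita (chr16:10480014-10531064) was the member with no called region at either annotated end. The call nearest to its lower end was the SISC-only region chr16:10483152-10484770, which begins 3.14 kb inside the gene, is 1619 bases wide and had −log10 q values of 36.7 and 56.6 and fold enrichments of 6.68 and 6.80. It was the highest by −log10 q in SISC replicate 2 of the 11 SISC-only regions near the 7 genes. It was also the only one of the 13 group-only regions that kept its pattern when each list was cut to its strongest 41721 peaks. A second SISC-only region inside the gene, chr16:10494396-10494689, had values of 14.3 and 10.4. Ciita is transcribed from several promoters that are used in different cell types, and neither this table nor the promoter sequences place them here.

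Between those regions lay a shared one, chr16:10489155-10491023, 9.14 kb inside the gene, with values of 67.1, 73.7, 39.7 and 31.2, both SISC values above both LISC values. Of the 6 regions inside Ciita, 3 were shared. The strongest region of the window, chr16:10464924-10466036, 14.0 kb outside the lower end, was shared at 473, 371, 471 and 204, which are percentiles of 97.4, 97.8, 97.5 and 95.3 in the 4 lists. The 2 other SISC-only regions, chr16:10560018-10560649 (14.0 and 36.5) and chr16:10569349-10569683 (9.47 and 7.63), were inside the neighbouring Clec16a. At the upper end the nearest call, 1.33 kb inside, came from SISC replicate 2 alone with a value of 4.84, and lies at the end of Dexi. No region around Ciita was LISC-only within 50 kb. It had 20 and 23 regions called in the SISC libraries and 16 and 14 in the LISC libraries, groups that did not overlap. How many of all genes show such counts was not counted, so whether they are particular to Ciita is not known.

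**Figure D4:**
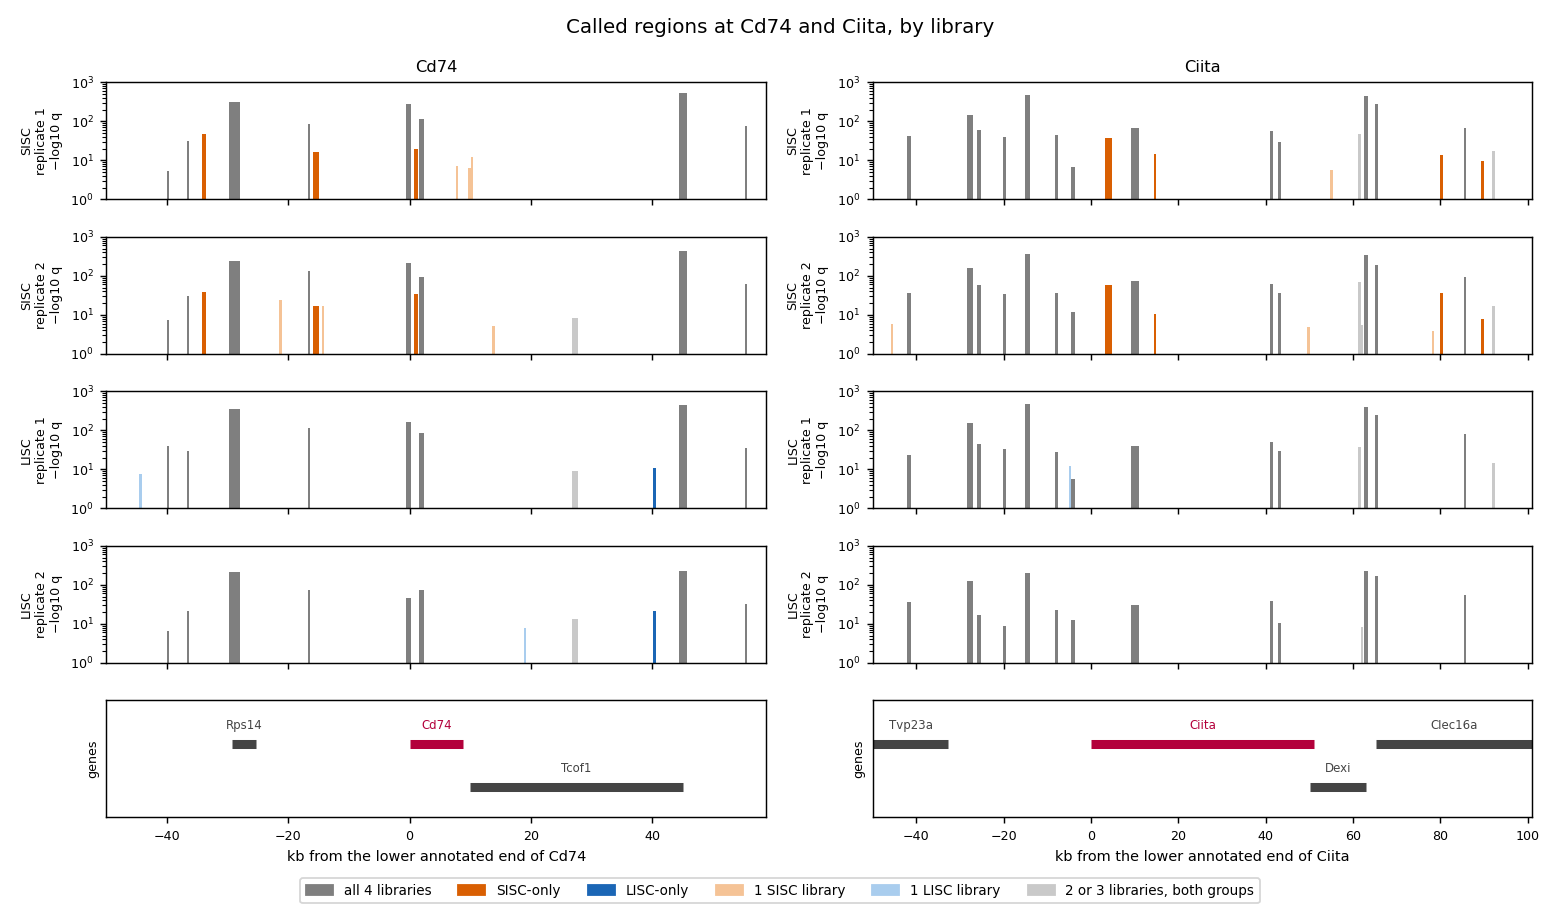
Bars are the regions called in each library around Cd74 and Ciita, drawn as width and −log10 q on a log axis against distance in kb from the lower annotated end. At Cd74 a grey bar, called in all 4 libraries, covers that end. At Ciita no bar covers it, and the orange SISC-only bar beginning 3.14 kb inside the gene is present in the 2 SISC rows and absent from the 2 LISC rows.

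Shared regions allow the groups to be compared by rank. Each region's percentile among the 57829 shared regions was taken within its own library, which removes a library's overall level. Ranked by −log10 q, both SISC percentiles were above both LISC percentiles in 29 of the 57 shared regions near the 7 genes (50.9%), against 30.4% of all shared regions. The reverse order held in 6 (10.5%), against 25.4%, and 22 overlapped. Ranked by fold enrichment the balance was not seen: SISC was higher in 12 (21.1%), against 26.1%, and LISC in 16 (28.1%), against 27.4%. By both rankings SISC was higher in 12 (21.1%), against 21.3%, and LISC in 6 (10.5%), against 19.3%. The share in which SISC was higher by both rankings was therefore near the background.

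The same held at the gene ends. At H2-Aa the percentiles by −log10 q were 89.6 and 89.8 in SISC and 79.9 and 74.2 in LISC. At Cd74 they were 88.1 and 85.6 against 75.4 and 51.5. The regions over an end of H2-Aa, H2-Ab1, H2-Eb1, H2-DMb1 and Cd74 all had both SISC percentiles above both LISC percentiles by −log10 q. By fold enrichment all 5 overlapped: H2-Aa stood at 86.7 and 84.2 in SISC and 92.6 and 84.4 in LISC, and Cd74 at 51.9 and 54.9 against 65.3 and 42.0.

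**Figure D5:**
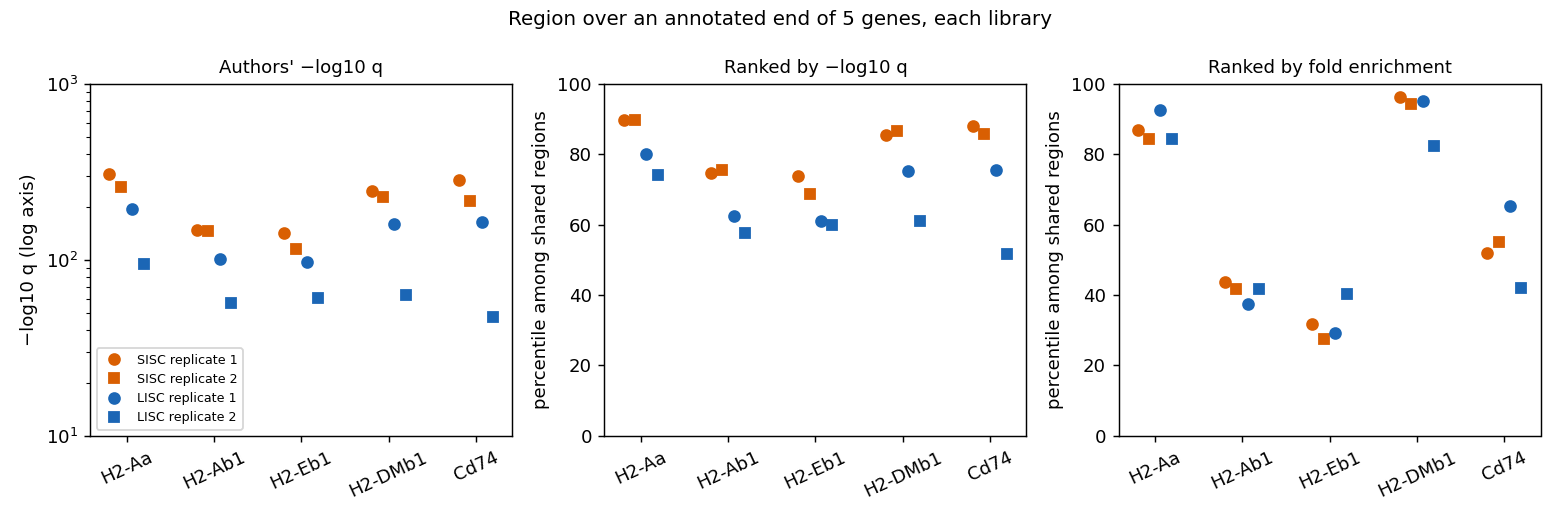
Points are single libraries for the region over an end of each of 5 genes: the authors' −log10 q on a log axis (left), its percentile among the 57829 shared regions (middle) and the percentile of fold enrichment (right). Orange SISC points lie above blue LISC points for all 5 genes in the left and middle panels, and the groups overlap for all 5 in the right panel. The region over the lower end of H2-DMa, where LISC was higher by both percentiles, is not drawn.

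The 12 regions in which SISC was higher by both rankings covered no annotated end of a member. The region 0.66 kb ahead of H2-Eb1 was one of them, with percentiles by −log10 q of 60.3 and 53.0 in SISC and 22.1 and 17.6 in LISC. Another, chr17:34291615-34291939, 3.79 kb ahead of H2-Aa, had −log10 q of 78.2 and 75.5 in SISC and 32.6 and 20.0 in LISC. Others lay 3.43, 3.76 and 5.75 kb from H2-Ob, and in Ciita chr16:10521020-10521676, inside the gene, stood at percentiles of 47.2 and 46.8 against 41.8 and 43.5. The 6 regions in which LISC was higher by both rankings included the end shared by Psmb9 and Tap1, the region at Rps14 and the lower-end region of H2-DMa.

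Of the 5 other class II genes of the cluster, 0 were called at an end in all 4 libraries. H2-Ob, whose product with that of H2-Oa restrains DM, was called at 32.3, 23.9 and 26.8 in all but LISC replicate 2. H2-Eb2 was called at different sites at its ends. Its lower end was called in SISC replicate 2 alone, at 5.64. Near its upper end lay the LISC-only region given above, at 7.79 and 12.6. H2-Oa, H2-DMb2 and H2-Ea had no call at an end in any library.

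For the lists that follow, −log10 q values were compared without ranking them within each library. The median −log10 q of all peaks was lowest in LISC replicate 2. The share of all genes with groups that do not overlap was not counted, and fold enrichments were not compared for these lists. The factors that load CIITA onto promoters were called in both groups. Of the 7 enhanceosome genes, 6 had an end region in all 4 libraries, and Nfyc, an NF-Y subunit gene, had none at the ends of its annotated span but was called in all 4 libraries at its 3 RefSeq starts. Rfx5, the large RFX subunit, was the one in this list with higher values in LISC, at 68.8 and 51.5 in SISC and 146 and 111 in LISC. Rfxap (378, 350, 384 and 240), Rfxank, Nfya, Nfyb and Creb1 all overlapped between groups. The end of Rfxank is shared with other genes.

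All 8 genes of the interferon gamma route to Ciita were called at an end in all 4 libraries. Irf1, an interferon-induced transcription factor gene, had −log10 q values of 277, 258, 426 and 158, and the receptor chain gene Ifngr1 had 540, 366, 641 and 313. In both genes the groups overlapped. The second receptor chain gene Ifngr2 was higher in SISC, at 113 and 99.3 against 81.2 and 54.4. Its RefSeq promoter was called in no library, so these values are not from that promoter. Jak1, Jak2, Irf2 and the feedback inhibitor Socs1 overlapped. Regions within 50 kb of the 8 genes were SISC-only in 19 of 177 (10.7%, against 7.96% of all regions) and LISC-only in 11 (6.21%, against 10.2%).

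The 6 genes that prepare peptides in endosomes (Ctss, Ctsl, Ctsb, Ctsd, Ifi30, Lgmn) were likewise called at an end in all 4 libraries. Cathepsin S, encoded by Ctss, cleaves the invariant chain, and its end was the weakest of the 6, at 39.1, 74.9, 35.2 and 27.2. All 9 class I presentation genes were called in all 4 as well. B2m, the class I light chain gene, had values of 433, 338, 481 and 223. Nlrc5, which does for class I what CIITA does for class II, had 155 and 170 in SISC and 139 and 85.9 in LISC. These groups did not overlap, and how many of all genes show this order was not counted.

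Immune cells express class II genes, so genes of those cells were read beside them. Of 12 immune cell genes, 7 had no region at an end in any library, among them Ptprc, the pan-leukocyte marker, and Cd3e, Cd3d, Cd8a, Ms4a1 and Lyz2. Cd4, Cd79a and Cd79b were called in all 4, and the Cd4 and Cd79a regions also lie at an end of another gene. The RefSeq promoter of Cd79a was called only in replicate 1 of each group. Cd4, a T cell coreceptor gene, was higher in SISC, at 134 and 103 against 91.7 and 51.2. Cd79b, a B cell receptor chain gene, was higher in SISC, at 54.7 and 81.1 against 12.9 and 9.65. Itgam, a myeloid integrin gene, was SISC-only at 9.90 and 19.0, and C1qa, a macrophage complement gene, was LISC-only at 9.0 and 6.73. The RefSeq promoter of Itgam was called in no library. The list was called at 4 ends in each of the 4 libraries.

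Of 12 genes of professional antigen-presenting cells, Spi1, Irf4, Irf8, Itgax and Cd40 were called at an end in all 4 libraries. Spi1, a myeloid and B cell transcription factor gene, was higher in SISC, at 346 and 301 against 244 and 169. Irf4, a lymphoid and dendritic cell factor gene, was also higher in SISC, at 106 and 75.5 against 67.8 and 22.9. Irf8, Itgax and Cd40 overlapped between groups, and the RefSeq promoter of Itgax, the CD11c gene, was called in none of the 4. Zbtb46, Csf1r, Cd80 and Adgre1 had no call within 1 kb of an annotated end, while the RefSeq promoter of Cd80, a costimulatory ligand gene, was called in both SISC libraries and LISC replicate 1. Flt3 was SISC-only, at 4.59 and 31.0, and Cd86 and Cd68 were missing from LISC replicate 2. This list was called at 8 ends in each SISC library and at 7 and 5 in the LISC libraries, lowest in LISC replicate 2. The immune cell list was called at 4 ends in every library. Of these 2 lists, Cd4, Cd79b, Spi1 and Irf4 were higher in SISC by −log10 q. Flt3 and Itgam were called in SISC only, and C1qa in LISC only. Cd86 and Cd68 were called in all but LISC replicate 2, and Cd79a, Irf8, Itgax and Cd40 overlapped. The ends of H2-Aa, H2-Ab1, H2-Eb1, H2-DMb1 and Cd74 were higher in SISC, while the lower end of H2-DMa overlapped. The epithelial gene Krt18 was also higher in SISC, at 223 and 195 against 158 and 74.3, while the other epithelial genes overlapped. In the remaining lists, both SISC values were above both LISC values at Lgr5, the gene that marks the sorted cells, and at Tap2, Nlrc5, Ctss and Ifngr2. Kdr, from the stromal, endothelial and glial list, had this order too, and Rfx5 had the reverse. Higher −log10 q in SISC was therefore not particular to class II or immune cell genes. The part of other cells in these results was not tested. Of 10 stromal, endothelial and glial genes, 6 were called at an end in each library except LISC replicate 2, which called 2.

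Among the listed genes more than 100 kb away, the end most like that of a member was found by the Euclidean distance between rank percentiles within the 4 full peak lists. H2-Aa was nearest to Cldn7 (6.44) and Epcam (7.77), both epithelial genes. H2-Ab1 was nearest to Cd4 (7.69) and Ifngr2 (10.3), and so was H2-Eb1 (5.02 and 7.1). H2-DMa was nearest to Tapbp (2.63) and Vil1 (2.98), H2-DMb1 to Krt18 (4.70) and Nlrc5 (11.1), and Cd74 to Krt18 (11.6) and Tap2 (16.9). The distances rest on 4 libraries, and the genes were ranked in the same libraries.

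At the edge of the windows, the outermost region taken lay 49.5 kb from H2-Eb1 and was called in LISC replicate 1 alone. Just outside, regions lay 50.1 kb from Ciita, called in 2 or 3 libraries of both groups, and 50.3 kb from H2-DMa, called in 1 LISC library.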

How the data were processed

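ATAC-seq peaks of 2 SISC and 2 LISC libraries were used. The submitters' processing notes name MACS2 2.2.7.1, Bowtie2 2.3.4.1, cutadapt 3.4, bedtools and Picard, and the mm10 build. Neither these nor the labels give their order, their settings or any shift for transposase insertion. The authors deposited 1 peak list per library with a fold enrichment (a ratio) at the summit, a −log10 p and −log10 q, and a score equal to the whole part of 10 times −log10 q in 99.84% to 99.89% of peaks. The lowest −log10 q was 2.04 to 2.42.

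Peaks sharing at least 1 base were merged (pandas 2.3.3, checked against bedtools 2.31.1 and tested on simulated data), and genes came from the RefSeq GRCm38.p6 table. A gene end was called within 1 kb of either annotated end. The text names, by rule, the 7 members, every group-only region near them, the region nearest each end and strongest in each window, the genes of each list of at most 12, and the 2 most alike genes. The members and lists were chosen with earlier results of these data known. Alternatives were a −log10 q minimum of 5, equal numbers of peaks, a 50% cover, windows of 250 bases around summits, windows of 10 and 100 kb, gene ends of 500 and 2500 bases, and each library left out.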

Additional observations from a re-analysis of the deposited data

How the results depend on the processing

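Regions near the 7 genes numbered 11 SISC-only, 2 LISC-only and 57 called in all 4 libraries. With the strongest 41721 peaks of each list these were 7, 0 and 34, and with windows of 10 kb they were 5, 0 and 27. With windows of 100 kb there were 14 SISC-only regions, 4 LISC-only regions and 87 called in all 4. The 10 and 100 kb windows take in fewer and more regions by construction, and for the other moves the cause was not tested. Leaving out 1 library in turn gave 12 to 23 SISC-only and 2 to 7 LISC-only regions; a pattern then needs fewer libraries, and over all regions the shares also rose, to between 10.5% and 17.7% for SISC-only and 11.4% and 16.2% for LISC-only. With the strongest peaks, SISC-only regions fell in number around Ciita and Cd74 and rose around H2-Aa, H2-Ab1 and H2-Eb1, and only 1 of the original 11 was among them. The 6 genes with a shared end region stayed at 6 in every alternative run. Ranked by fold enrichment in place of −log10 q, SISC was higher in 12 shared regions and LISC in 16, against 29 and 6; ranking by −log10 q without each library gave 34 to 38 and 9 to 12. The fold ranking and the rankings without a library were chosen after the data were seen. No paired analysis was possible because no test was run. The depth of the libraries is unknown, and it limits which weak regions were called.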

Other observations

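Btnl2, a butyrophilin-like gene at the H2-Eb1 side of the class II cluster, had the widest gap between groups of the 57 shared regions by mean percentile. Its end region chr17:34354452-34355279 had −log10 q values of 96.0 and 123 in SISC and 18 and 23.6 in LISC, with fold enrichments of 14.2 and 12.8 against 5.12 and 5.20. The groups did not overlap by either value. Its percentiles among shared regions by −log10 q were 63.2 and 70.7 in SISC and 13.7 and 28.1 in LISC. A region 4.99 kb from Btnl2, chr17:34349297-34349798, had −log10 q values of 66.6 and 93.0 against 15.0 and 29.0, and its groups did not overlap either. This gene is not a member, and it was singled out after its values were seen.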
